A study of Sus scrofa with 36 samples.

Results

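Liver RNA of heat-stressed crossbred pigs was compared with that of heat-stressed Large White pigs. The comparison rests on 12 of the 36 arrays of the series, 6 from F1 animals and 6 from Large White (LW) animals, chosen by the breed and temperature in their labels. All were castrated males. F1 animals are crosses of Large White and Créole, LW is a commercial European breed selected for lean growth, and Creole (CR) is a local Caribbean breed. The heat-stressed (HS) groups carry 30 °C in their labels and 32 °C in the growth protocol, for up to 5 days, and the thermoneutral (TN) groups of 6 pigs per breed, used here only as a second pair, were kept at 24 °C. Per the study's methods, each breed came from a few litters, pens held pigs of a single breed, and littermates were spread over both temperatures. Each group therefore held littermates and pen mates, and had fewer litters and pens than its 6 pigs. Litter, pen and slaughter day are not in the labels, and every test below treats pigs as independent, so that p-values may be too small.

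The liver makes most plasma proteins, among them complement, transport proteins and coagulation factors, and it handles lipids, amino acids and foreign compounds. Hepatocytes give most of its RNA. The rest comes from Kupffer cells, which are the resident macrophages, from sinusoidal endothelial cells, and from passing lymphocytes and neutrophils. In heat, pigs eat less, and the liver is known to change its metabolic and chaperone genes. Growth hormone acts on the liver through its receptor and drives insulin-like growth factor production. Mitochondrially encoded transcripts come from the maternal genome only, and their sequence can differ between pig breeds.

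Each array measured the signal of probes of 60 bases on a 1-colour design. The signal of a probe depends on its own sequence, so levels are compared between pigs for the same probe and never between probes. All levels and differences below are on the log2 scale of the quantile-normalized median spot signal, and a difference is F1 minus LW. A probe was called where limma gave a Benjamini-Hochberg adjusted p under 0.05 over all 44796 kept probes. The 8 probes of the first group below are shown because probes of the same name gave different answers in these pigs. Capitals mark the longest unbroken run of bases that both probes of a mitochondrial pair share. Before that run, the COX1 pair also matches in further, shorter stretches, so the capitals do not show all of its likeness.

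COX1 probe A_72_P762153: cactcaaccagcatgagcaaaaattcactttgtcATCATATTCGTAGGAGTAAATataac
COX1 probe A_72_P721538: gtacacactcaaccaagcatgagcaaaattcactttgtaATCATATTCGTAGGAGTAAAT
ND1 probe A_72_P745561: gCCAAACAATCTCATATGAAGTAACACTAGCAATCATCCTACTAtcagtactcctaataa
ND1 probe A_72_P754234: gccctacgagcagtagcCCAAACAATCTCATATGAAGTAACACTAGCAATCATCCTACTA
PON1 probe A_72_P035606: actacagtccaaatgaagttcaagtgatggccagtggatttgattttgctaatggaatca
PON1 probe O12638: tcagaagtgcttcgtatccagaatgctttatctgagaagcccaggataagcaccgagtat
SOD2 probe A_72_P444413: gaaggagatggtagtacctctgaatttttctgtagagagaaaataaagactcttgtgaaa
SOD2 probe A_72_P341278: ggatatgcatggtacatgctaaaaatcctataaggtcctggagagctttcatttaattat

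The next probes are those of PON3, HLA-E and S100A2, which had the largest differences among named genes read by their brightest probes, and 3 further probes whose call held in every fit without 1 array or 1 slide. They are in lower case throughout.

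PON3 probe A_72_P385478: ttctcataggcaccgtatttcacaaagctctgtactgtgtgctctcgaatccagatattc
HLA-E probe O10747: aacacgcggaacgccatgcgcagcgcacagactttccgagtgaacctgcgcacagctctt
S100A2 probe A_72_P281844: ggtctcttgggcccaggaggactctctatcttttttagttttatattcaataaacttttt
C4BPA probe A_72_P555460: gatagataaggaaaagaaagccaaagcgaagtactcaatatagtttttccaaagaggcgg
MTRF1 probe A_72_P191081: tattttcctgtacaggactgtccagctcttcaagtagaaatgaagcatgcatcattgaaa
unnamed probe A_72_P511032: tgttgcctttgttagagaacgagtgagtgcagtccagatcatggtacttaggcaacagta

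Before any gene is described, 2 F1 animals need naming. On the first principal component of all kept probes, which carried 18.6% of the variance, LW HS pigs lay between -34.3 and -24.8 and F1 HS pigs between -21.3 and 36.9, with medians of -32.7 and 18.7. The groups did not overlap (exact permutation test, two-sided, p = 0.00216, the smallest that 6 against 6 can give, 0.0108 after adjustment over 5 array measures). F1 HS pigs 1 and 2, at -17.0 and -21.3, lay apart from the other F1 HS pigs on the side of LW, and LW TN pigs 1 and 6 lay apart from the other LW pigs. The number of spots well above background ran from 40064 to 43536 in F1 and from 40314 to 44025 in LW (exact permutation test, adjusted p = 0.833). The hepatocyte marker list, which includes albumin and transferrin, had a mean level of 16.98 to 17.08 in F1 and 17.00 to 17.10 in LW. The labelled tissue was thus borne out in all 12 arrays. By their brightest probes, 0 of 10 measured markers were called by limma (1 at an unadjusted p under 0.05), while 2 had another probe that was called.

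**Figure D1:**
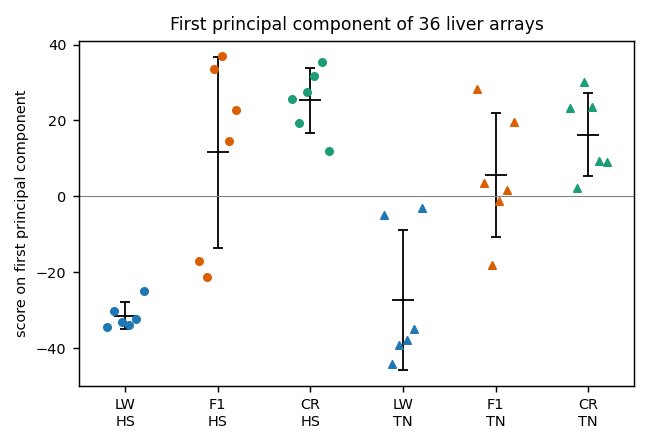
First principal component score of each pig over kept probes (y axis, no unit) for the 6 groups (x axis), with 1 point per pig and bars for the mean and SD. LW HS pigs lie between -34.3 and -24.8, and F1 HS pigs 1 and 2 at -17.0 and -21.3 lie nearest to them.

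Under heat, F1 and LW livers differed in many genes by modest amounts. Of 44796 probes, 2842 were called (6.34%), 1300 higher in F1 (2.9%) and 1542 lower (3.44%). The median difference of the called probes was 0.44 among those higher in F1 and -0.44 among those lower, and 72 were called with a difference of at least 1 on the log2 scale. Among 11409 gene symbols, each read by its brightest kept probe, 688 were called (6.03%), 279 higher in F1 (2.45%) and 409 lower (3.58%). The median over all symbols was -0.02. With median centring in place of quantile normalization, 3469 probes were called, of which 25.3% were higher in F1 against 45.7% here. F1 and LW values did not overlap for 1129 of all probes (2.52%), 792 of them called (1.77%), and for 282 of the symbols' brightest probes (2.47%). Most calls lay near the threshold, with 2217 at an adjusted p between 0.02 and 0.05 and 109 under 0.01, and their number moved strongly with single pigs. Without F1 HS pig 1 or 2 it was 4964 or 5573, and without F1 HS pig 3, 4, 5 or 6 it was 421, 557, 1356 or 1289. It fell to between 1359 and 1661 without any one of LW HS pigs 1 to 5. Without slide 3, which held 3 of the 12 arrays, 8 probes were called, and without slide 4, 53. Of all 2842 probes, 340 were called in each of the 12 fits without 1 array, and these carried 161 symbols. By a rule given with the processing, 69 genes were picked, of which 58 were called and 25 of those had groups that did not overlap. The call of 20 of the 58 held in all 12 fits without 1 array, and F1 HS pigs 3 and 4 were those whose absence lost the most calls, 36 and 32.

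Counts over gene lists below are of brightest probes, and stand against the 6.03% called over all symbols. Where a count is of genes with any called probe, it stands against 1148 of the 11409 symbols. Genes of detoxification and lipid handling held the largest rise among the named genes, read by brightest probes. PON3 encodes a paraoxonase, an esterase that the liver secretes on lipoproteins. Its probe read 15.37, 16.12 and 16.55 (lowest, median and highest) in F1 HS and 11, 11.91 and 15.45 in LW HS. All 6 F1 pigs were high, whereas 4 LW pigs were low and LW pigs 3 and 6, at 15.21 and 15.45, reached the F1 range. The difference was 3.13 ± 0.89 (SE, n = 6 per group, limma adjusted p = 0.0344), 8.78 fold on the linear scale. The call held in 4 of the 12 fits without 1 array, and within slide 5, which holds LW pig 6, the difference was -0.08. In TN pigs the difference was 1.04 (adjusted p = 0.576), with values of 11.82 to 16.26 in F1 and 11.17 to 15.29 in LW. The other 3 PON3 probes differed by 3.08, 2.52 and 2.39, of which the first was called (adjusted p = 0.0405, 0.0531 and 0.0501). CR HS pigs covered the range too, from 12.34 to 16.06.

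PON1, the related paraoxonase that neighbours PON3 on the Sscrofa11.1 assembly, was lower in F1 by its brightest probe. That probe read 13.10, 13.43 and 13.67 in F1 and 13.98, 14.30 and 14.53 in LW, with no overlap. The difference was -0.87 ± 0.16 (SE, n = 6 per group, adjusted p = 0.00493), and the call held in all 12 fits without 1 array. The second PON1 probe, O12638, singled out after its values were seen, read 14.36, 15.36 and 15.67 in F1 and 10.05, 10.99 and 14.54 in LW, and differed by 3.21 (adjusted p = 0.035). Its 2 high LW pigs were again pigs 3 and 6, as with PON3. The file describes both it and the brightest PON3 probe as paraoxonase 1, and the latter is PON3 only through its RefSeq accession. O12638 shares a longest run of 7 bases with the brightest PON3 probe. Paraoxonases are a family of like sequence, so which of them each probe reads is uncertain. PON1 and PON3 were the 2 of 34 measured antioxidant enzymes and paraoxonases called by their brightest probe, and the median difference of the list was 0.01. Of the 34, 9 had any called probe.

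CYP1A1, a cytochrome that oxidises aromatic foreign compounds, read 9.68, 10.58 and 11.20 in F1 and 8.0, 9.31 and 9.66 in LW, with the lowest F1 pig just above the highest LW pig. It was higher in F1 by 1.35 ± 0.39 (SE, adjusted p = 0.0375, called in 6 of the 12 fits without 1 array). CYP4F2, a fatty acid and vitamin hydroxylase, was higher by 0.66 (adjusted p = 0.0308), but its slide 5 difference was -0.86 and its call held in 4 of the 12 fits. These were the 2 called of 26 measured cytochrome genes, with a median of 0.07. MGST1, a membrane-bound glutathione transferase, was higher by 0.53 (called in 4 of the 12 fits) and the only called member of 19 conjugating enzymes. With one value per gene, MGST1 gave 0.03 (adjusted p = 0.878). SOD2, the mitochondrial superoxide dismutase, was named for one probe only, chosen after its values were seen. Probe A_72_P444413 read 6.43, 6.57 and 8.33 in F1 and 9.20, 9.39 and 10.08 in LW, a difference of -2.59 ± 0.65 (SE, adjusted p = 0.0205) with no overlap, and its differences within slides 2 to 5 ran from -3.46 to -1.77. The other 7 SOD2 probes differed by -0.19 to 0.42.

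Lipid genes were called at shares near or under that of all symbols. EHHADH, an enzyme of peroxisomal fatty acid oxidation, read 10.58, 11.27 and 11.54 in F1 and 10.17, 10.42 and 10.58 in LW, without overlap. It was higher in F1 by 0.76 ± 0.14 (SE, adjusted p = 0.00586), its call held in all 12 fits without 1 array, and it was the only one of 30 genes of fatty acid oxidation and ketogenesis called by its brightest probe (median -0.03), while 3 of the 30 had any called probe. PLIN2, which coats lipid droplets, was lower in F1 by its brightest probe (difference -0.72, adjusted p = 0.0439, called in 3 of 12 fits), while its second probe gave -0.07. LIPC, the hepatic lipase, differed by -0.48 (adjusted p = 0.0306, called in 5 of 12 fits), with F1 from 10.81 to 11.17 and LW from 11.37 to 11.68. PLIN2 and LIPC were the called members of 25 in glycerolipid synthesis and droplet proteins (8.0% against 6.03%). Of 22 genes of fatty acid synthesis, 23 of cholesterol synthesis and uptake and 21 of bile acid synthesis and transport, 0 were called by their brightest probe in limma, with 6, 1 and 6 at an unadjusted p under 0.05 and medians of 0.09, -0.05 and -0.01. In these 3 lists 2, 2 and 3 genes had another probe that was called. ELOVL2, which lengthens polyunsaturated fatty acids, differed by -0.03 ± 0.51 (SE, adjusted p = 0.984), and LPIN1, a phosphatidate phosphatase, by 0.75 ± 0.41 (adjusted p = 0.262).

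Amino acid and sugar metabolism showed single genes too. HPD, of tyrosine breakdown, read 13.10, 13.32 and 13.48 in F1 and 12.54, 12.74 and 12.86 in LW, and was higher by 0.59 ± 0.12 (SE, adjusted p = 0.00804) with no overlap. It was the 1 called gene of 39 in the urea cycle and amino acid breakdown, where 30 of 39 differences were positive and the median was 0.15. GLDC, of the glycine cleavage system, was higher by 0.62 (adjusted p = 0.0202, 3 of 4 probes called). SLC38A4, an amino acid transporter of hepatocytes, read 11.84, 12.52 and 13.68 in F1 and 11.41, 11.68 and 12.14 in LW, and was higher by 0.95 (adjusted p = 0.0161), with 2 of 2 probes called. SLC7A2, a transporter of cationic amino acids whose probe was chosen after its values were seen, read 10.66, 11.79 and 12.70 in F1 and 9.03, 10.02 and 10.91 in LW. It was higher by 1.71 ± 0.37 (SE, adjusted p = 0.0114) in HS and by 1.75 in TN (adjusted p = 0.0213). Among 37 genes of glucose and glycerol metabolism, LDHA, the lactate dehydrogenase subunit of glycolytic tissue, was lower without overlap (difference -0.67, adjusted p = 0.0222). SLC37A4, the glucose 6-phosphate transporter, and PDK2, a kinase that restrains pyruvate dehydrogenase, were higher by 0.31 and 0.37, with calls held in 10 and 5 of the 12 fits without 1 array. With one value per gene SLC37A4 and PDK2 gave 0.18 and 0.09 (adjusted p = 0.476 and 0.531). GPD1, glycerol 3-phosphate dehydrogenase, differed by 0.22 (adjusted p = 0.25).

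Other genes that were higher in F1 had varied roles. PHF2, a histone demethylase, read 8.28, 8.60 and 9.0 in F1 and 7.05, 7.20 and 8.22 in LW, and the difference was 1.14 ± 0.20 (SE, adjusted p = 0.00343, called in all 12 fits without 1 array). It was also called in TN pigs, at 0.84 (adjusted p = 0.0383). PIGL, of glycolipid anchor synthesis, was higher by 1.04, ALG14, of protein glycosylation, by 0.95, and the secreted C1q-like protein C1QL4 by 0.97. TRIM15, of a ubiquitin ligase family, SERAC1, of phospholipid remodelling, and NCOA4, the receptor for ferritin breakdown, were higher by 0.88, 0.86 and 0.69. CEP110, a centrosome protein, and DDX46, an RNA helicase of splicing, were higher by 0.64 and 0.59, with 3 of 4 and 2 of 3 probes called. Among the genes of this paragraph, the calls of PHF2, C1QL4 and SERAC1 held in all 12 fits, that of DDX46 in 10, that of PIGL in 8, that of NCOA4 in 4, those of TRIM15 and CEP110 in 3, and that of ALG14 in 2.

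**Figure D2:**
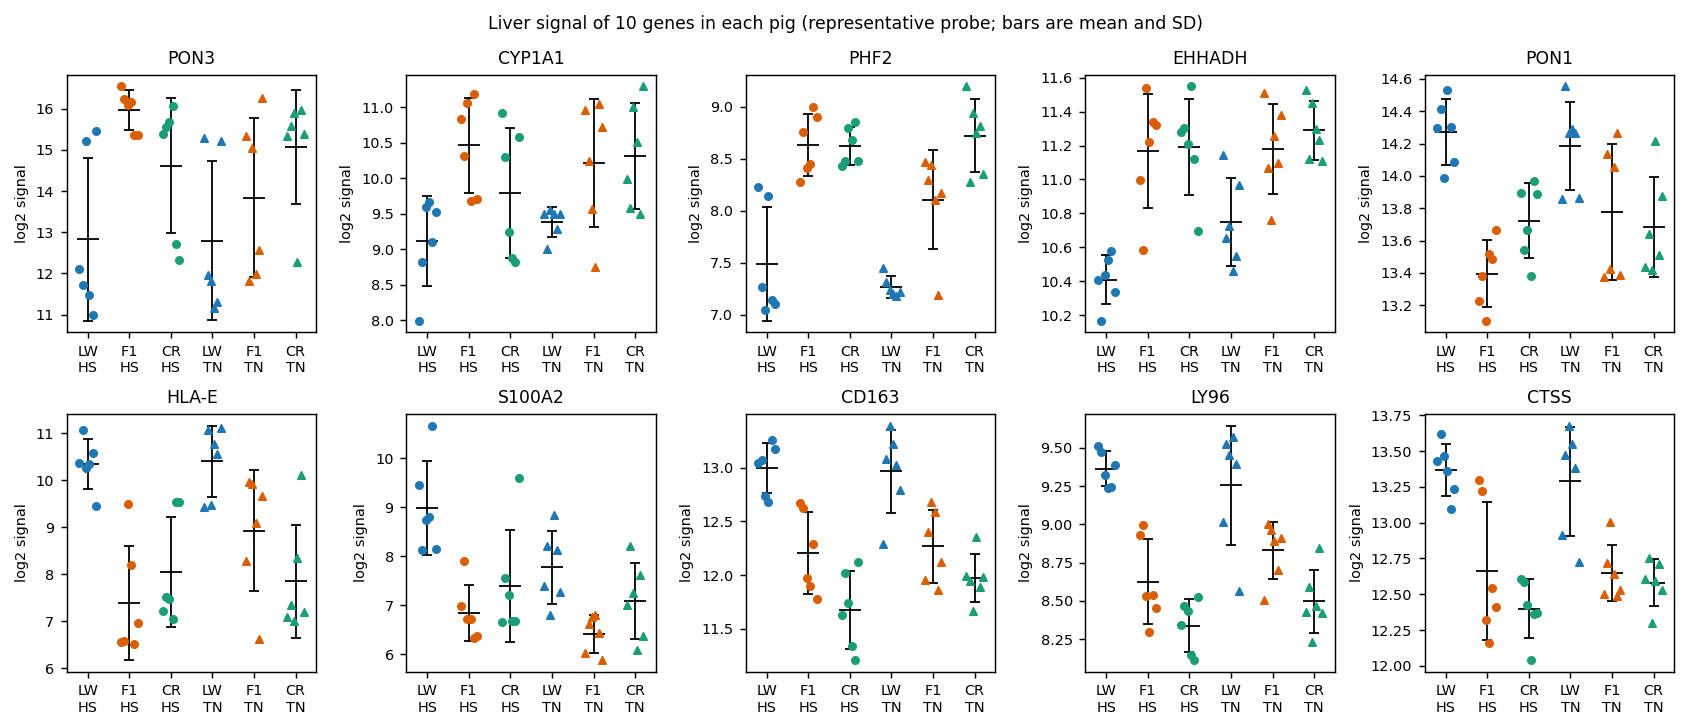
Log2 signal (y axes, each with its own range) of 10 genes by their representative probe in the 6 groups (x axes), with 1 point per pig and bars for the mean and SD. PON3 is high in all 6 F1 HS pigs and in LW HS pigs 3 and 6, and PON1, S100A2, CD163 and LY96 show no overlap between F1 HS and LW HS.

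The largest fall among the named genes, read by brightest probes, was that of an immune gene. HLA-E is the file's human name for a probe of an MHC class I gene, the family that presents peptides to T and NK cells. It read 6.52, 6.77 and 9.48 in F1 and 9.45, 10.36 and 11.06 in LW. Of the F1 pigs, 4 lay under 7, and F1 HS pig 3, at 9.48, lay just above the lowest LW pig. The difference was -2.96 ± 0.58 (SE, n = 6 per group, adjusted p = 0.00798), a 7.76-fold lower signal, and within slides 2 to 5 it ran from -3.94 to -2.32. The difference in TN pigs was -1.47 (adjusted p = 0.182). SLA-6, a pig class I gene, read 5.88, 6.38 and 7.46 in F1 and 7.47, 7.65 and 7.83 in LW, and differed by -1.12 ± 0.21 (SE, adjusted p = 0.00586). SLA-1, a classical class I gene, differed by -0.58 (adjusted p = 0.0141), but only 2 of its 7 probes were called and they ran from -0.58 to 0.29. B2M, the light chain of class I, and FCGRT, an antibody receptor built on the same fold, differed by -0.42 and -0.36 (adjusted p = 0.035 and 0.014). In all, 5 of 23 class I genes were called, each lower, and the list's median was -0.11. Class I genes are near copies with many alleles, so which gene or allele a probe reads is uncertain. Of 16 class II presentation genes, 2 were called, both lower, with a median of -0.20. They were the lysosomal protease CTSS (-0.71) and the thiol reductase IFI30 (-0.55), with calls held in 10 and 3 of the 12 fits without 1 array. CD74, the invariant chain, differed by -0.25 (adjusted p = 0.29).

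S100A2, a calcium-binding protein of epithelia, read 6.34, 6.72 and 7.90 in F1 and 8.12, 8.77 and 10.67 in LW, with no overlap. The difference was -2.15 ± 0.44 (SE, adjusted p = 0.00961, 2 of 2 probes called, called in all 12 fits without 1 array). CXCL16, a chemokine and scavenger receptor, read 11.26, 12.35 and 13.09 in F1 and 13.20, 13.35 and 13.51 in LW, a difference of -1.01 (adjusted p = 0.0113). LY96, which joins the endotoxin receptor TLR4, read 8.30, 8.54 and 9.0 in F1 and 9.24, 9.36 and 9.51 in LW, and was lower by all of its 4 probes (-0.74 ± 0.14, SE, adjusted p = 0.00539). The calls of CXCL16 and LY96 held in all 12 fits without 1 array. MX2, an antiviral GTPase induced by interferon, was the 1 called gene of 42 interferon-stimulated genes, higher in F1 by 0.65 (adjusted p = 0.0313, called in 5 of 12 fits), while the median of that list was -0.15.

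Macrophage markers were lower in F1. Of 9 measured markers, 6 were called, all lower (66.7%, against 3.58% lower over all symbols), with a median of -0.67 against -0.02 over all symbols. The mean level of the list ran from 9.65 to 10.80 in F1 HS and from 10.57 to 11.01 in LW HS, and F1 HS pigs 1 and 2, at 10.80 and 10.72, were the F1 pigs that overlapped LW. CD163, the haemoglobin scavenger receptor, read 11.78, 12.13 and 12.68 in F1 and 12.68, 13.06 and 13.26 in LW, just without overlap. It differed by -0.79 ± 0.18 (SE, adjusted p = 0.0152), with 5 of 6 probes called, and lost its call in 1 of 12 fits, that without F1 HS pig 3. VSIG4, a complement receptor of Kupffer cells, and CSF1R, the receptor that macrophages need to live, differed by -0.73 and -0.67. The 3 chains of C1q, C1QA, C1QB and C1QC, whose genes lie next to each other on Sscrofa11.1, differed by -0.61, -0.78 and -0.70. Of the markers that were not called, MSR1 gave -0.62 (adjusted p = 0.09), CLEC4F, a Kupffer cell lectin in other species, -0.52 (0.17), and CD68 0.06 (0.87). In whole liver, fewer macrophages and less RNA per macrophage cannot be told apart. Without F1 HS pigs 1 and 2, a setting chosen after seeing the data, the median was -1.01 with 8 of 9 called, but those pigs were left out for lying near LW on the first principal component, so that a larger difference follows from the choice.

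Markers of endothelial cells, neutrophils and T and NK cells were mostly lower in F1 too, and their part in the results was not tested. Endothelial markers had 3 of 9 called, each lower (TEK -0.88, CDH5 -0.61 and KDR -0.60), with a median of -0.23, and their mean level ran from 8.94 to 9.59 in F1 and from 9.61 to 9.76 in LW. The sinusoidal marker LYVE1 gave -0.48 (adjusted p = 0.063). Of 7 neutrophil markers, CXCR2 was called (-0.77), all 7 differences were negative and the median was -0.55. Of 11 T and NK cell markers, CD4 was called (-0.41), 10 differences were negative and the median was -0.37. B and plasma cell markers did not share this, as 4 of 7 differences were positive and the median was 0.06, with only XBP1 called, lower in F1. Cholangiocyte, erythroid, muscle, adipocyte, stellate and pancreas or gut markers had 0 of 52 called in limma (3 at an unadjusted p under 0.05), with medians from -0.12 to 0.09.

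Of 45 complement and coagulation genes, 12 had any called probe and 6 were called by their brightest one. C9, the pore-forming end of the complement cascade, read 13.70, 14.23 and 14.69 in F1 and 12.93, 13.51 and 14.12 in LW, and was the only one higher, by 0.74 (adjusted p = 0.0268, called in 6 of 12 fits without 1 array). The 5 lower ones were the 3 C1q chains above, SERPINC1 (antithrombin, -0.28) and C4BPA. C4BPA encodes the chain of C4b-binding protein, a plasma inhibitor of complement. All 7 of its probes were called, with differences from -1.28 to -0.42. Probe A_72_P555460, the one farthest apart and chosen after its values were seen, read 10.04, 10.71 and 11.07 in F1 and 11.76, 11.85 and 12.38 in LW. It differed by -1.28 ± 0.19 (SE, adjusted p = 5.78e-04), with no overlap, and by -1.48 to -1.07 within slides 2 to 5. None of the 31 acute phase proteins was called by its brightest probe in limma (8 at an unadjusted p under 0.05, median -0.05), while 3 had another probe that was called. HAMP, the iron hormone hepcidin, differed by 0.24 ± 1.49 (SE, adjusted p = 0.945), since F1 HS pig 2 and LW HS pig 1 read 8.30 and 9.16 and the other pigs 12.60 to 15.83.

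**Figure D3:**
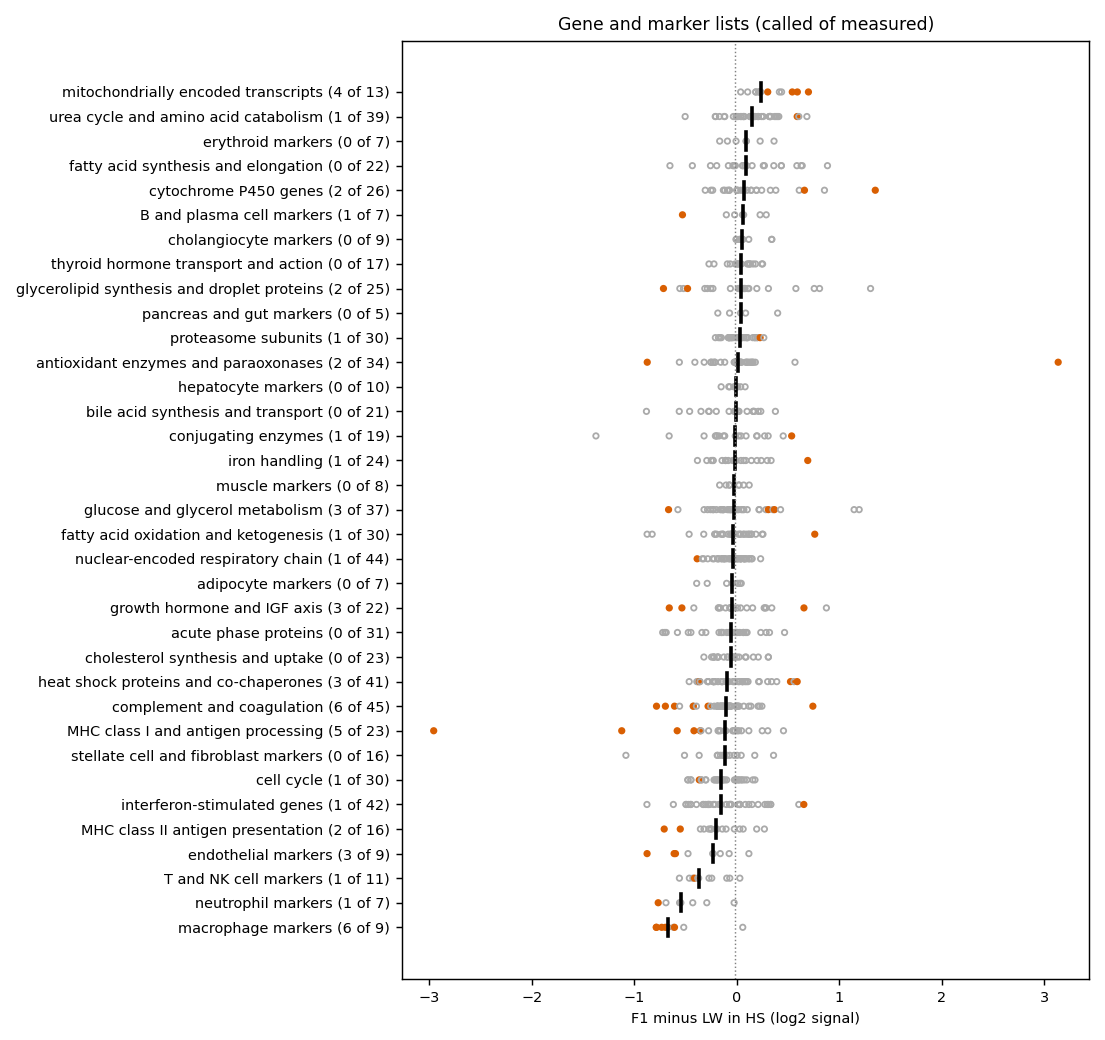
F1 minus LW in HS (x axis, log2 signal) for every measured gene of the lists (y axis, with called of measured genes in brackets). Open grey points were not called, filled orange points were called, black bars are list medians, and the dotted line is the median of all symbols. Macrophage markers lie lowest, with a median of -0.67, and mitochondrially encoded transcripts highest, with 0.23.

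The growth hormone axis had 3 of 22 genes called (13.6% against 6.03% of all symbols), 2 of them with calls that few of the fits without 1 array held, and its median was -0.04. GHR, the growth hormone receptor, read 13.32, 13.60 and 13.83 in F1 and 12.55, 12.96 and 13.44 in LW, where LW pig 2 overlapped. The difference was 0.65 ± 0.20 (SE, adjusted p = 0.047), with the call held in 1 of 12 fits without 1 array, and all 6 of its probes were positive, 0.55 to 1.20, with 4 called. The GHR probe with the largest difference, chosen after its values were seen, read 12.81, 12.89 and 13.03 in F1 and 10.81, 11.86 and 12.39 in LW, a difference of 1.20 (adjusted p = 0.0166). IGFBP2, a carrier of insulin-like growth factors, read 14.49, 14.94 and 15.57 in F1 and 15.23, 15.59 and 15.91 in LW. It was lower by all 4 probes (-0.66 ± 0.16, SE, adjusted p = 0.0205). IGFBP6, a related carrier, differed by -0.54 (adjusted p = 0.0445, called in 3 of 12 fits), and IGF1 itself by 0.87 (adjusted p = 0.13). In TN pigs GHR and IGFBP2 differed by 0.07 and 0.22, and the HS and TN differences of IGFBP2 gave an adjusted p of 0.978 against each other.

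Among 41 heat shock proteins and co-chaperones, 3 were called (7.32%, near the 6.03% of all symbols), and the median was -0.09. BAG1 and FKBP4, co-chaperones of Hsp70 and Hsp90, were higher by 0.59 ± 0.12 (adjusted p = 0.010) and 0.52 ± 0.10 (adjusted p = 0.00593), and both calls held in all 12 fits without 1 array. The other FKBP4 probes reached down to -0.23. HSPA14, a ribosome-bound Hsp70 relative, differed by -0.36 (adjusted p = 0.0386, called in 3 of the 12 fits). HSPH1, a large heat shock protein, gave -0.10 ± 0.18 (SE, adjusted p = 0.785), with F1 from 7.66 to 8.32 and LW from 8.02 to 8.31. XBP1, a transcription factor of the unfolded protein response and a marker of plasma cells too, was called in 9 of 9 probes, from -0.98 to -0.51, and its brightest probe read 14.46, 14.87 and 15.28 in F1 and 15.10, 15.43 and 15.60 in LW. The call of that brightest probe held in 6 of the 12 fits without 1 array. Single members were called among proteasome subunits (PSMC5, 0.23, 1 of 30), cell cycle genes (PCNA, -0.37, 1 of 30) and nuclear genes of the respiratory chain (NDUFS4, -0.39, 1 of 44), and these calls held in 6, 4 and 10 of the 12 fits without 1 array. The thyroid hormone list had 0 of 17 called in limma (2 at an unadjusted p under 0.05), and SERPINA7, which carries thyroxine in plasma, gave -0.09 ± 0.13 (SE, adjusted p = 0.712) by its brightest probe, while the other one was called at -0.42.

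Further genes lower in F1 belonged to no list. NUDT9, an ADP-ribose hydrolase, read 9.41, 10.95 and 11.47 in F1 and 11.64, 12.03 and 12.26 in LW, a difference of -1.40 ± 0.36 (SE, adjusted p = 0.0215). The gut and brain peptide CCK differed by -1.08, ODZ4, a teneurin, by -1.07, the gene known only as LOC100516039 by -1.04 and OIT3 by -0.97. The calls of CCK, OIT3 and ODZ4 held in 2, 4 and 5 of the 12 fits without 1 array. GSN, an actin-severing protein, gave -0.57 (adjusted p = 0.11) by its brightest probe, while its 3 other probes were called, down to -1.0. NRN1, a neurite growth factor, gave 1.56 ± 0.74 (SE, adjusted p = 0.191), with F1 HS pig 1 at 5.80 and LW HS pig 5 at 10.58 crossing over.

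The steadiest differences came from 5 probes, called in all 12 fits without 1 array and all 5 without 1 slide. They were singled out after their values were seen, and 3 have no gene symbol here. Probe A_72_P443974, which the file describes as a protease, read 7.68, 8.29 and 8.92 in F1 HS and 5.6, 5.77 and 5.87 in LW HS. Its difference of 2.53 ± 0.28 (SE, adjusted p = 7.45e-06, 5.76 fold) had the smallest p of all probes, and it was 2.89 in TN pigs (adjusted p = 2.46e-07). LW HS pigs lay near the lowest level well above background on their arrays, 4.92 to 5.23. No background was taken off, so the fold is one of signal and not of RNA level. Probe A_72_P511032 read 9.69, 10.16 and 10.53 in F1 and 8.45, 8.64 and 8.89 in LW, a difference of 1.47 in HS and 1.69 in TN. Both lay higher still in CR HS pigs, with medians of 8.96 and 10.75. The third unnamed probe differed by -1.85. MTRF1, which ends protein synthesis in mitochondria, read 6.27, 6.91 and 7.17 in F1 HS and 7.74, 7.81 and 7.95 in LW HS, a difference of -1.06 ± 0.14 (SE, adjusted p = 1.39e-04). CR HS pigs read 7.53 to 7.86, so F1 lay under both parent breeds (F1 minus CR -1.0, adjusted p = 5.20e-04), while TN values ran from 7.25 to 7.91 in F1 and 7.18 to 8.04 in LW. The test of HS against TN did not pass for it (adjusted p = 0.978). The fifth was the C4BPA probe above.

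Most probes for transcripts of the mitochondrial genome read higher in F1. Of 128 kept probes for its 13 coding genes, 39 were called, all higher (30.5% against 2.9% of all probes), 123 differences were positive, and the median was 0.30 in HS and 0.30 in TN, where 9 were called. By brightest probes, 4 of 13 genes were called: ND6 (0.70 ± 0.18, SE), ND3 (0.59 ± 0.12), ND5 (0.54 ± 0.11) and CYTB (0.30), which encode subunits of complex I and cytochrome b, and all 13 were positive with a median of 0.23. With median centring in place of quantile normalization 1 of the 13 was called, again with a median of 0.23. The second ND6 probe went the other way, at -0.46, and with one value per gene ND6 gave 0.12 (adjusted p = 0.447). ND5 was called by 3 of 3 probes in HS and in TN. ND6 read 15.71, 15.75 and 15.97 in F1 and 14.65, 14.99 and 15.69 in LW, just without overlap. Many probes read the same few transcripts, so they are not independent of each other. Whether the level of the transcripts or their sequence under the probes differed was not tested.

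Probes of 1 mitochondrial gene disagreed with each other in size. The 25 COX1 probes ran from -0.01 to 2.29 with 3 called, the 20 ND1 probes from -0.13 to 1.99 with 10 called, and the 13 ND2 probes from 0.23 to 2.19 with 6 called. The probes described next were chosen after their values were seen. COX1 probe A_72_P762153 read 16.45 to 16.74 in all 6 F1 HS pigs. In LW HS it read 16.28 and 16.54 in pigs 1 and 2, and 12.92 to 13.49 in the other 4, so LW split in 2 and F1 did not. The difference was 2.29 ± 0.68 (SE, adjusted p = 0.0396) over all pigs and 0.26 within slide 2, which holds LW pig 1. The F1 TN pigs read 16.60 to 16.97. LW TN pigs 2 and 3 read 16.57 and 16.74, and the other LW TN pigs 13.21 to 14.08, so LW was split there too. CR HS pig 1 read 16.47, and the other CR HS pigs 12.93 to 14.47. COX1 probe A_72_P721538, which shares with it a longest unbroken run of 21 bases and shorter stretches before that, differed by 0.21 ± 0.07 (SE, adjusted p = 0.049). Its highest LW HS values were also those of pigs 1 and 2, 17.77 and 17.78, and the other LW HS pigs read 17.54 to 17.66. ND1 probe A_72_P745561 read 15.37, 15.44 and 15.58 in F1 and 12.18, 12.81 and 15.30 in LW, with LW pigs 1 and 2 high again, and differed by 1.99 (adjusted p = 0.0423). Its neighbour A_72_P754234, with a shared run of 43 bases, differed by 0.94 (adjusted p = 0.0435). There too LW HS pigs 1 and 2 were high, at 15.65 and 15.66, and the other LW HS pigs read 14.09 to 14.98. The 11 probes with a difference over 1 belonged to 5 genes, COX1, COX2, COX3, ND1 and ND2.

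**Figure D4:**
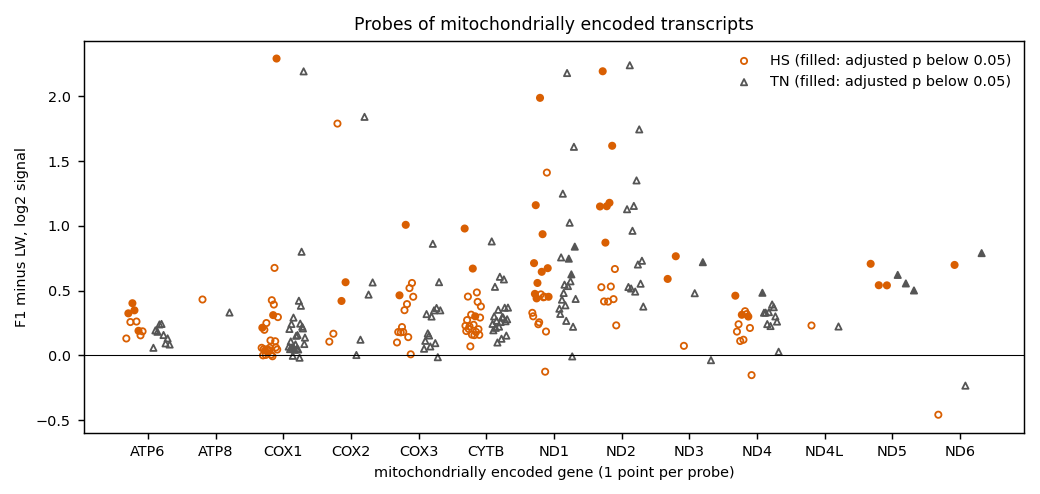
F1 minus LW (y axis, log2 signal) for each of 128 probes of the mitochondrial coding genes (x axis), circles for HS and triangles for TN, filled where called. In HS 39 probes are called, all above 0, and in most genes the differences of HS and TN cover like ranges.

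The same contrast in TN pigs used other arrays, though littermates of the HS pigs were among them. There 312 probes were called (0.696%), and of the gene symbols 69 (0.605%). Of the 2842 probes called in HS, 96.4% had the same sign in TN, against 69.0% of all probes, and the median TN difference was 0.24 for those higher in HS and -0.24 for those lower. The 139 probes called at both temperatures were 4.89% of the HS calls and 44.6% of the TN calls. Among the 58 named and called genes, 52 had the same sign in TN, and 6 were called there too: PHF2, ND6, HPD, ND5, SLA-1 and SLA-6. Without LW TN pigs 1 and 6, 2406 probes were called in TN, but those pigs were left out for lying apart from the other LW pigs, so that a higher count can follow from the choice. Leaving out any 1 of the 12 TN pigs, added after seeing the data, moved the count to between 72 (without LW TN pig 4) and 842 (without LW TN pig 1). A direct test of whether F1 minus LW differed between HS and TN called 0 probes in limma, with 2008 at an unadjusted p under 0.05 (4.48%) and the smallest adjusted p at 0.583. The 5 genes with the smallest p in that test were DOK2, an adaptor of immune cells, HADHA, of mitochondrial fatty acid oxidation, MEIG1, a meiosis gene, SLC35F3, a transporter, and IGFBP2. DOK2 gave 0.43 in HS and -0.78 in TN, a difference between them of 1.20 ± 0.24 (SE, adjusted p = 0.583).

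**Figure D5:**
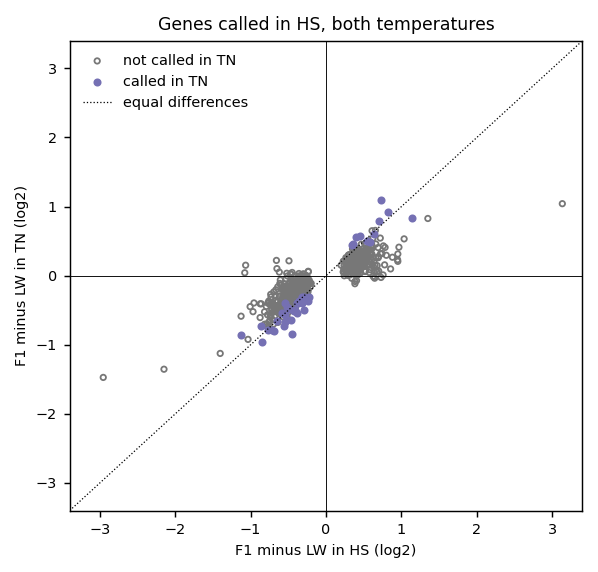
F1 minus LW in TN (y axis, log2) against that in HS (x axis, log2) for the 688 gene symbols called in HS, filled where called in TN too, with a dotted line of equal differences. The points were chosen by their HS value, and most lie in the quadrants of equal sign.

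Beside LW, CR HS pigs give a second reference, and since F1 minus LW, CR minus LW and F1 minus CR share arrays, their values are only set side by side. CR minus LW in HS called 7457 probes (16.6%) and F1 minus CR 37 (0.0826%). For CD163 the 3 differences were -0.79 (F1 minus LW), -1.32 (CR minus LW) and 0.53 (F1 minus CR), and for LY96 -0.74, -1.03 and 0.29. For EHHADH they were 0.76, 0.79 and -0.03, and for PHF2 1.14, 1.13 and 0.01. For some others the F1 mean lay outside the range of the parent breeds' means. For PON3 the values were 3.13, 1.79 and 1.34, for IGFBP2 -0.66, 0.07 and -0.72 (F1 minus CR adjusted p = 0.066), and for the COX1 probe above 2.29, -0.16 and 2.46 (adjusted p = 0.178). F1 minus CR was thus not called for IGFBP2 or the COX1 probe. For PON3 and the COX1 probe, both LW HS and CR HS included pigs that read within the F1 HS range. In all, 46.5% of the 2842 called probes had an F1 mean between those of LW and CR. These probes were called for the distance of F1 from LW, which favours F1 means that lie beyond CR. The share over all probes was not computed, so no conclusion about F1 and its parent breeds is drawn from it.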

How the data were processed

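Liver RNA of 36 pigs was hybridised to 1-colour Agilent arrays on 5 slides. The authors deposited 1 scanner table per array from Agilent Feature Extraction 10.10.1.1, with spot intensity values not normalized between arrays. They also deposited a table of log2 values for 42051 probes, centred per probe, in which the 4 arrays of slide 1 were centred apart from the other 32. Their methods name quantile normalization and limma with breed and temperature, and random terms for pen, day of slaughter and both parents that the labels do not give.

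Here each spot's median signal was put on the log2 scale and quantile normalized over the non-control probes of all 36 arrays. The 107 spots marked non-uniform were treated as missing values, and no called probe had one among the 12 arrays. Probes well above background on at least 6 arrays were kept, 44796 of 60305 (74.3%). Of these, 23420 carried one of 11409 symbols, taken from the files and updated through the RefSeq gene table of Sscrofa11.1. Sequences are those of the scanner tables. All 36 arrays entered a means model of the 6 groups (limma 3.58.1, R 4.3.3, two-sided moderated tests, Benjamini-Hochberg adjustment, threshold 0.05), which was tested on simulated data. Array measures were compared with exact permutation tests. The number of arrays limits the precision. Replicate numbers follow accession order and only name the pigs.

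Named genes, read by the kept probe with the highest mean signal, were the 10 largest differences each way among called symbols, up to 6 each way among symbols with 3 or more probes of 1 sign and at least 50% called, the 5 smallest p for HS against TN, up to 3 called genes of each list, and HAMP, HSPH1, GPD1, SERPINA7, ELOVL2, LPIN1, PON3 and NRN1. Some of the genes so picked are not reported here. Members, lists and tests were chosen with earlier results of these data known. Alternatives were the processed signal scaled at its 75th percentile, a normexp correction (offset 50), median centring, the authors' table, other filters, slide as a block, array weights, a trended robust spread, fewer arrays, one value per gene, and leaving out arrays or slides.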

Additional observations from a re-analysis of the deposited data

Results flagged for a closer look

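In 14 cases 1 pig of a group of 6 lay far from its group: its gap to the nearest other pig, divided by the range of the group, exceeded Dixon's critical value for 6 samples. Chance flags about 1 in 20 groups, and 182 groups were examined. In F1 HS, MX2 read 7.56 in pig 3, GLDC 8.54 in pig 5, HAMP 8.30 in pig 2 and LDHA 12.3 in pig 2. In the same group the C4BPA probe A_72_P555460 read 10.04 in pig 3, the SOD2 probe A_72_P444413 8.33 in pig 3, and the median background was 18 intensity units in pig 6. In LW HS, PIGL read 8.18 and MEIG1 5.81 in pig 4, SLC35F3 7.02, IFI30 9.35 and the SOD2 probe 10.08 in pig 6, SLA-1 17.1 in pig 1 and OIT3 10.5 in pig 5. F1 HS pig 3 and LW HS pig 6 were each flagged 3 times.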

How the results depend on the processing

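No paired analysis was possible because the labels give no replicate numbers that groups share. All 2842 probes called in HS that could be tested kept their direction under every alternative fitted per probe, and of 2274 values of named genes 2256 kept theirs. These fits reuse all or most of the arrays by which the probes were called, so kept directions say little about other pigs. Of the 2842 probes, 8 were still called without slide 3 and 51 without slide 4. The number called in HS stayed within 1.5 times the reported one under the processed signal, normexp, median centring, the authors' table, other filters, slide as a fixed or random block and a trended robust spread. It was 6211 with array weights and 1248 with the 12 arrays alone. With one value per gene 677 genes were called, against 688 by brightest probes. The probe count was 421 to 5573 without 1 HS array, 5001, 1339, 8, 53 and 886 without slides 1 to 5, and 8747 without F1 HS pigs 1 and 2. In TN it was 192 with median centring, 63 in the authors' table, 126 with slide as a fixed block, and 1307 with array weights. With one value per gene 73 genes were called in TN, against 69 by brightest probes. The TN count was 249 to 507 without 1 HS array and 72 to 842 without 1 TN array, the latter added after seeing the data. It was 44, 20, 25 and 157 without slides 2 to 5, 962 without F1 HS pigs 1 and 2 and 2406 without LW TN pigs 1 and 6. Both pairs of pigs were picked by their scores on the first principal component, so that higher counts can follow from the choice. The test of HS against TN called 1 probe without slide 5 and 0 otherwise. Fits to the HS arrays alone give no TN values. The cause of these shifts was not tested, and fewer arrays leave less power.

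ELOVL2, reported at -0.03, turned to 0.0174 with the processed signal, 0.22 and 0.0167 with slide as a fixed or random block, 0.56 and 0.0303 without slides 4 and 5, and 0.0168 without F1 HS pigs 1 and 2. Without single arrays it ran from -0.33 to 0.29. With one value per gene, HSPH1 gave 0.0354, HADHA 0.0585 and PON1 1.17. HAMP, at 0.24, ran from -0.62 to 1.31 without single arrays, below 0 without LW HS pig 1 or F1 HS pig 3 or 4.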
